A study of Mus musculus with 16 samples.

Results

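The enzymes that make serine and pass its carbon to folate were followed in preSC, a mouse model of cells on the way to small cell lung cancer, that carried Wnt5a or an empty vector. The list held 10 genes: Phgdh, Psat1, Psph, Shmt1, Shmt2, Mthfd1, Mthfd2, Mthfd1l, Aldh1l2 and Gldc. They were taken by gene symbol from 17655 listed genes. Values of 9 of the 10 are given, and Gldc was not analysed here. The list was chosen by the measured Wnt5a minus empty difference of Psat1, which stood among the large rises, with the pathway's other enzymes added by name. The values of all 9 enzymes between the Wnt5a and empty groups are therefore given as a description, with no p-value, and how many of them cross the threshold used for all genes is no evidence about the list. A comparison that did not enter this choice, between the libraries of each group, was tested.

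Per the labels, all cells were Chga-positive lung neuroendocrine cells, null for Rb1 and Trp53 and heterozygous null for Rbl2. The control group was infected with the empty lentivirus and the other with a lentivirus carrying Wnt5a, a secreted Wnt ligand. Doxycycline (1 µg/mL, 48 hours) was given to both. The cells grew in RPMI 1640, a medium that supplies serine and glycine, with bovine growth serum. The labels do not give the promoter of the transgene, the number of clones, or whether the samples came from separate cultures.

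The 16 samples, 8 per group, held 7526676 to 8859862 reads each. Within a group, the counts of samples 1 to 4 differed among themselves by little more than sampling noise, and so did those of samples 5 to 8. The index of dispersion, which is near 1 for sampling noise, was 0.987 to 1.05 in the 24 such pairs and 5.23 to 5.44 in the 32 other pairs of a group. Each set of 4 was therefore averaged as 1 library, A (samples 1 to 4) or B (samples 5 to 8), with 2 libraries per group. What separates A from B is not given in the labels, and p-values measure only the spread between these 4 libraries. Wnt5a itself, the check of the labels, had a normalised read count of 122 ± 31.4 in empty and 1279 ± 325 in Wnt5a cells (SD, n = 2 libraries), a log2 difference of 3.38 (limma, adjusted p = 0.0010). The summed level of 7 neuroendocrine markers was 50122 to 51798 in the 8 empty samples and 46800 to 50091 in the 8 Wnt5a samples. The 11 markers of other lung cells (stromal, immune, endothelial and epithelial) summed to 393 to 690.3 and 290.02 to 320.2. Most of it was the fibroblast proteoglycan Dcn (468 ± 181 and 243 ± 3.35). The stromal markers Col1a1 and Pdgfra were far lower, with at most 5.08 and 15.2 in any empty sample. In the Wnt5a samples they reached at most 0.941 and 3.76. The endothelial marker Cdh5 had 1 read in each empty library and 0 reads in the Wnt5a libraries. Pecam1, also endothelial, had 15 and 11 reads in empty libraries A and B and 11 in each Wnt5a library. The immune markers Cd68 and Lyz2 had means of 10.9 and 1.96 in empty and 10.8 and 2.58 in Wnt5a cells. For the epithelial Foxj1, Ager and Sftpc the means were 23.9, 12.9 and 9.13 in empty and 22.4, 13.1 and 6.92 in Wnt5a cells. Scgb1a1 had 1 read in library B of each group. The part of these marker differences in the results below was not tested.

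Serine is made from the glycolytic intermediate 3-phosphoglycerate in 3 steps: Phgdh oxidises it, Psat1 transfers an amino group to it, and Psph removes the phosphate. Shmt1 in the cytosol and Shmt2 in mitochondria then split serine into glycine and a carbon unit carried on tetrahydrofolate. Mthfd2, Mthfd1l and Aldh1l2 interconvert that unit in mitochondria, Mthfd1 does so in the cytosol, and Gldc is the glycine-binding subunit of the glycine cleavage system, which feeds the same folate pool. The carbon units serve the synthesis of purines and thymidylate and the remethylation of homocysteine, and Atf4 is a known transcriptional activator of several of these genes.

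The start regions of 5 enzymes are shown because they differ in how the transcripts moved. Psat1 and Shmt1 were higher with Wnt5a. Phgdh, Psph and also Psat1 differed between libraries. Mthfd2 had small differences in both comparisons (0.05 and 0.08). Sequences are from RefSeq on GRCm38.p6, 250 bases before to 50 after an annotated start, printed 5′ to 3′ on the gene's strand. Capitals mark the CCAAT box, the core bound by the factor NF-Y, or ATTGG where the box lies on the other strand.
Psat1, chr19:15925010-15925309, minus strand: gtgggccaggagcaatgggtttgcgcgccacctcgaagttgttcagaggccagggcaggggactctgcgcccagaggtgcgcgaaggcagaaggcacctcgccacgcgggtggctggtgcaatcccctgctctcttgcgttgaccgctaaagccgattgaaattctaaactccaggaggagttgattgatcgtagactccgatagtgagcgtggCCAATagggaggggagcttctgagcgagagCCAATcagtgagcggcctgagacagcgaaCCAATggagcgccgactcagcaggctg
Shmt1, chr11:60811216-60811515, minus strand: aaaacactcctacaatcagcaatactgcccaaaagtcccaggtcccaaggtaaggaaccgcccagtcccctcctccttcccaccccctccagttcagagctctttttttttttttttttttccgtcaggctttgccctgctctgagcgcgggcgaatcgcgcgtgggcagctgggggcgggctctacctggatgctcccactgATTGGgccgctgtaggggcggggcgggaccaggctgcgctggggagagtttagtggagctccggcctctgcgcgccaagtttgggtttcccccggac
Phgdh, chr3:98339920-98340219, minus strand: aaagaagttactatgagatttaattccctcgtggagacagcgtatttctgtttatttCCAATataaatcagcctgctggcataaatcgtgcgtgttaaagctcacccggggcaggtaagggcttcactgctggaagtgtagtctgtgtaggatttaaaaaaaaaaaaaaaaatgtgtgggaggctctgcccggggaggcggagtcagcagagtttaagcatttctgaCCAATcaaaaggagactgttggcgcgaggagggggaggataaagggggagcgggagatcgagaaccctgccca
Psph, chr5:129787204-129787503, minus strand: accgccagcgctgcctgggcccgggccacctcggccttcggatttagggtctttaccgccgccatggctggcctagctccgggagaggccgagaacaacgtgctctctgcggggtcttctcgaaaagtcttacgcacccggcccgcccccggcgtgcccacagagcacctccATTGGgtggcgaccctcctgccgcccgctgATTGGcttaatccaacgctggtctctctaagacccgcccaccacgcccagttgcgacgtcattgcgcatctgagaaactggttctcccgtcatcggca
Mthfd2, chr6:83317555-83317854, minus strand: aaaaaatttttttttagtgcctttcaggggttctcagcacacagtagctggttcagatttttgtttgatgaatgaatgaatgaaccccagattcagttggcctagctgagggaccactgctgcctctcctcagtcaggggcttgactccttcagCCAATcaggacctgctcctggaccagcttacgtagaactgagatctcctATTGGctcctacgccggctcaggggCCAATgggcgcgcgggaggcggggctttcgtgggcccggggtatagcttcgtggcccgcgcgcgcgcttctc

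The RefSeq table matched 9 of the 10 genes, with 10 windows, as Psat1 has a second one. CCAAT, searched on both strands, was found in 7 of the 10 windows at least 1 time, against 37.4% of all 32851 promoter windows. It occurred 3 times in the printed Psat1 window and in that of Mthfd2, against 3.37% of all windows. Phgdh and Psph each held 2, against 11.7% of windows with at least 2, while Shmt1, Mthfd1 and Gldc held 1. The windows of Shmt2 and Mthfd1l and the second one of Psat1 held 0. TGATGNAA, a form of the Atf4 composite element, was found in 0 of the 10 windows (3.97% of all windows), as were the E-box CACGTG (7.15%) and the cAMP response element TGACGTCA (1.79%), each searched on both strands. With 0 hits of these, no CCAAT box overlapped another motif searched. The box was thus present both in Psat1, higher with Wnt5a, and in Mthfd2, whose log2 difference was 0.05.

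Psat1 had the largest log2 difference of the 9 enzymes between the group means, though Shmt1 had the larger one in the A libraries, without Wnt5a library B and with the chromosome medians removed. The 4 samples of empty library A spanned normalised read counts of 303 to 338, and those of empty library B 417 to 457. In Wnt5a cells, the 4 samples of library A spanned 782 to 809 and those of library B 965 to 1011. All 8 Wnt5a samples were above all 8 empty samples, and the means were 888 ± 131 against 379 ± 76.5 (SD, n = 2 libraries), 2.34-fold higher. The log2 difference, taken here and below on log2(value + 1) of library means, was 1.23 (SE 0.16). The A libraries differed by 1.29 and the B libraries by 1.18.

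Phgdh, the first enzyme, did not follow Psat1 by that size. Its samples spanned 295 to 299 in empty A, 436 to 483 in empty B, 337 to 365 in Wnt5a A and 532 to 563 in Wnt5a B. The groups overlapped, since empty B lay above Wnt5a A. The Wnt5a minus empty log2 difference was 0.25 (SE 0.25), with 0.23 in the A and 0.26 in the B libraries. Only 36.9% of the 50-base windows of its longest GENCODE M21 transcript occur in the transcripts of no other gene, so its level is uncertain where reads could be shared with near-identical copies. For Psat1 that share was 98.8%.

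Psph, the last step, was the lowest of the 3 serine enzymes. Its samples spanned 148 to 185 in empty A, 185 to 229 in empty B, 166 to 206 in Wnt5a A and 206 to 247 in Wnt5a B. The groups overlapped over most of their range, and the log2 difference was 0.12 (SE 0.15). Of the 3 consecutive steps, the middle one alone had groups that did not overlap.

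Both serine hydroxymethyltransferases had higher values with Wnt5a, by different amounts. Cytosolic Shmt1 spanned 76.4 to 117 in empty A, 117 to 152 in empty B, 257 to 283 in Wnt5a A and 226 to 255 in Wnt5a B. All Wnt5a samples were above all empty samples, and the means were 255 ± 14.3 against 116 ± 23.1, 2.21-fold higher. The log2 difference was 1.15 (SE 0.15), with 1.41 in the A and 0.89 in the B libraries.

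Mitochondrial Shmt2 spanned 754 to 804 in empty A, 792 to 875 in empty B, 988 to 1071 in Wnt5a A and 1118 to 1165 in Wnt5a B. Its groups did not overlap either, and the means, 805 ± 47.8 and 1081 ± 86.4, differed 1.34-fold. The log2 difference was 0.42 (SE 0.09), nearly equal in the A (0.40) and B (0.44) libraries. In empty cells the mitochondrial transcript was the more abundant per length, at 352 ± 20.9 per kb against 40.4 ± 8.09 for Shmt1. In Wnt5a cells these levels were 472 ± 37.7 and 89.2 ± 4.99 per kb.

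The 4 folate enzymes that take up the carbon unit had log2 differences between −0.03 and 0.16. Mthfd2, the mitochondrial methylenetetrahydrofolate dehydrogenase and cyclohydrolase, was the most abundant of the 9 per length, at 551 ± 16.9 per kb in empty and 569 ± 26.7 per kb in Wnt5a cells. Its samples spanned 1074 to 1201 in empty and 1115 to 1270.1 in Wnt5a cells, with a log2 difference of 0.05 (SE 0.08). Mthfd1, the cytosolic trifunctional enzyme, spanned 612 to 681 and 588 to 709.99, with a log2 difference of −0.01 (SE 0.08). These groups overlapped almost wholly.

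Mthfd1l, which releases formate from the mitochondrial pool, spanned 266 to 387 in empty and 282 to 342 in Wnt5a cells. Its log2 difference was −0.03 (SE 0.13), made of 0.16 in the A and −0.23 in the B libraries. Aldh1l2, which oxidises the mitochondrial formyl group to carbon dioxide and yields NADPH, spanned 684 to 1008 and 853 to 1035. Its log2 difference was 0.16 (SE 0.15), with 0.30 in the A and 0.01 in the B libraries. For both genes, empty library A was the lowest of the 4 libraries.

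**Figure D1:**
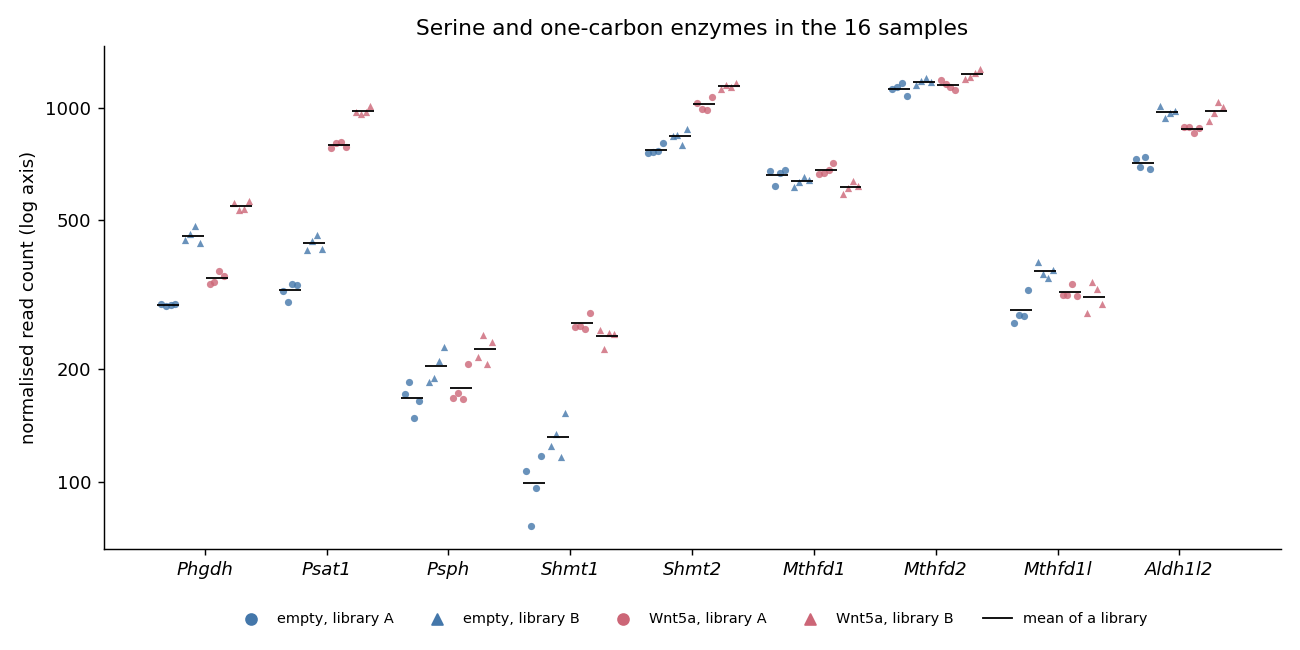
Normalised read count (log axis) of the 9 enzymes in the 16 samples, coloured by group, with circles for library A, triangles for library B and a line at the mean of each library. Psat1, Shmt1 and Shmt2 have all 8 Wnt5a samples above all 8 empty samples, and Phgdh separates by library within each group.

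Across the 9 enzymes, 7 had a higher and 2 a lower mean in Wnt5a cells, and the same 7 were higher in both library pairs. The threshold applied to all genes between the groups, a limma adjusted p of 0.05, was crossed by 2 of the 9, Psat1 and Shmt1, both higher. Of the 12357 genes tested, 2.06% passed in either direction, 1.38% higher and 0.672% lower. All 8 Wnt5a samples lay above all 8 empty samples in 3 of the 9, and 0 of the 9 lay below, where 6.45% of the genes tested lay above and 12.4% either way. Nothing is read from these counts, as the list was built on Psat1 in this contrast. The median log2 difference of the 9 was 0.16, and that of all genes tested 0.00. With the libraries paired A to A and B to B (replicate block), 4 of the 9 crossed it, Phgdh and Shmt2 joining, where 17.0% of all genes did, 8.68% higher and 8.27% lower. Without empty library B, 5 did, with Aldh1l2 in addition. With the chromosome medians removed, 1 of the 9 did, Shmt1, and 0 did without a filter on low values or without a trend in the prior variance. In all, 254 genes passed, 171 higher and 83 lower, and with the chromosome medians removed 206 did, 117 higher and 89 lower. The quasi-likelihood test of edgeR on the recovered reads called 246 genes and the same 2 enzymes, and DESeq2 called 538 genes and 3 enzymes, with Shmt2 added. Shmt2 was also the third with the 16 samples counted separately.

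Per length, the order of the levels in empty cells was Mthfd2, Shmt2, Mthfd1, Phgdh, Psat1, Aldh1l2, Mthfd1l, Psph and Shmt1. Mthfd1 (200.1 ± 5.66 per kb) and Phgdh (199 ± 58.9) did not differ beyond their spread. Nor did Psat1 (145 ± 29.3) and Aldh1l2 (139.8 ± 30.7). In Wnt5a cells Psat1, at 339 ± 49.99 per kb, stood after Mthfd2 and Shmt2 and ahead of Phgdh (237 ± 73.7), Mthfd1 (199.6 ± 15.2) and Aldh1l2 (154 ± 12.1). Shmt1 (89.2 ± 4.99), Mthfd1l (86.0 ± 1.598) and Psph (70.3 ± 11.8) made up the low end. Shmt1 and Mthfd1l did not differ beyond their spread in Wnt5a cells, so the order among neighbouring levels is a description only.

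The serine enzymes also differed between libraries A and B, the comparison that had no part in choosing the list. Phgdh, Psat1 and Psph were all higher in library B, with group as a term in the model. Phgdh was higher in B by a log2 difference of 0.63 (SE 0.06, limma adjusted p = 0.0153), with 0.61 in empty and 0.64 in Wnt5a cells. Psat1 was higher by 0.36 (SE 0.05, limma adjusted p = 0.0223), with 0.41 and 0.30 in the groups. Psph was higher by 0.31 (SE 0.07, limma adjusted p = 0.0470), with 0.28 and 0.34. Set beside the Wnt5a minus empty differences, these were 0.63 against 0.25 for Phgdh and 0.36 against 1.23 for Psat1, and the gap between the contrasts was not tested.

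The remaining 6 enzymes did not pass this test. Aldh1l2 was 0.31 higher in B (SE 0.07) and missed the threshold narrowly (limma adjusted p = 0.05001), with 0.45 in empty and 0.16 in Wnt5a cells. It passed under 4 alternatives, edgeR and DESeq2 among them. Shmt2 differed by 0.14 (SE 0.05, adjusted p = 0.102), Mthfd2 by 0.08 (SE 0.04, adjusted p = 0.282) and Mthfd1 by −0.11 (SE 0.05, adjusted p = 0.226). Shmt1 (0.15, SE 0.12, adjusted p = 0.463) was 0.41 higher in empty B and 0.11 lower in Wnt5a B than in A. Mthfd1l (0.16, SE 0.09, adjusted p = 0.313) likewise changed sign between the groups, 0.35 and −0.04, and whether the groups differed in this was not tested.

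Thus 3 of the 9 passed between libraries, all higher in B, where 7.41% of the 12357 genes tested passed in either direction, 3.33% higher and 4.09% lower in B. The median log2 B minus A difference was 0.16 over the 9 enzymes and 0.00 over all genes tested. All 4 B samples lay above all 4 A samples in both groups for 3 of the 9, Phgdh, Psat1 and Aldh1l2, against 8.94% of all genes tested. Psph, which passed, overlapped narrowly in empty cells (A up to 184.8, B from 184.7). The neuroendocrine markers moved with the library too: Chga was 0.29 lower in B (limma adjusted p = 0.0246) and Uchl1 0.34 higher (limma adjusted p = 0.0153), and their part in the result was not tested. The 3 calls were lost where the prior variance was fitted without a trend on expression or where no filter on low values was used, with adjusted p up to 0.191.

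**Figure D2:**
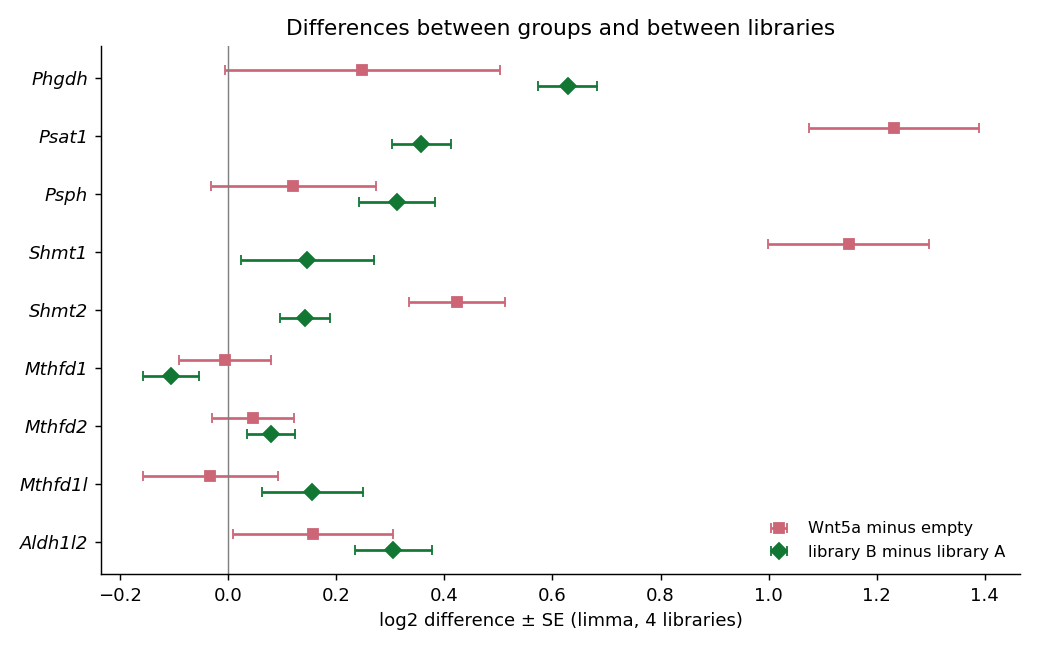
Log2 difference with its standard error for each of the 9 enzymes, Wnt5a minus empty (squares) and library B minus library A (diamonds), each from limma on 4 libraries. Psat1 and Shmt1 lie at 1.23 and 1.15 in the first, and Phgdh at 0.63 in the second.

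The enzymes lie on different chromosomes, and the transcripts around some of them were also displaced. Over the 412 genes tested on chromosome 19, which carries Psat1, the median log2 Wnt5a minus empty difference was 0.36. It was 0.17 over the 1020 genes tested on chromosome 11, which carries Shmt1, and −0.01 on chromosome 10, which carries Shmt2, Mthfd1l and Aldh1l2. Of the 20 tested genes nearest to Psat1, 10 on each side, the median difference was 0.37, ranging from −0.0008 to 1.03, and 2 passed the test. All 20 were below Psat1. The 20 nearest to Shmt1 had a median of 0.17 (−0.31 to 0.41) and 0 passed, and all 20 were below Shmt1. The 20 around Shmt2 had a median of −0.0009 (−0.38 to 0.27), again all below the enzyme.

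With the median of its chromosome removed, the log2 difference was 0.87 for Psat1, 0.98 for Shmt1 and 0.43 for Shmt2. Phgdh on chromosome 3, at 0.25, lay above 19 of its 20 neighbours, and Aldh1l2, at 0.16, above 19 of 20. Psph was above 17 of 20, and Mthfd1 and Mthfd2 each above 15 of 20. Mthfd1l, near one end of the gene order of chromosome 10, had only 11 such neighbours and lay above 4 of them.

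**Figure D3:**
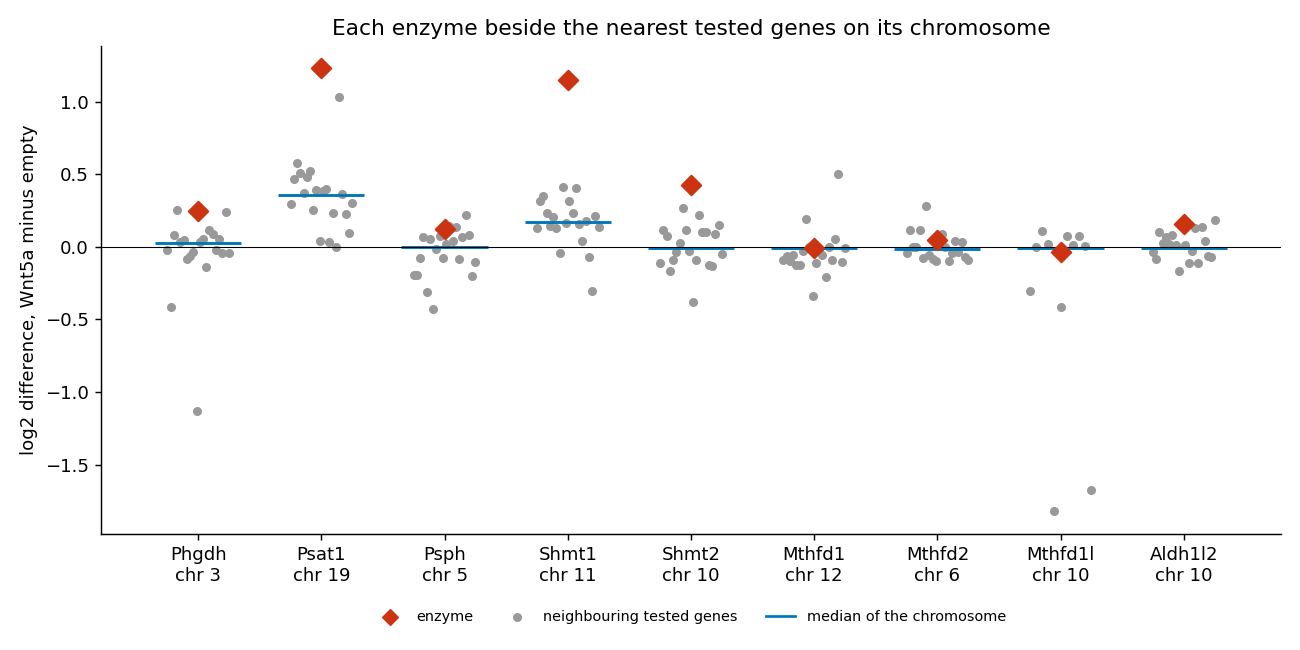
Log2 Wnt5a minus empty difference of each enzyme (red diamond), of the nearest tested genes on its chromosome (grey points, 20 each and 11 for Mthfd1l) and the median of that chromosome (blue line). Psat1 lies among neighbours whose median is 0.37, and Shmt1 among neighbours whose median is 0.17.

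Likeness to Psat1 was measured over the 4 libraries as the Euclidean distance between centred log2 values, among 9700 genes with a mean value of at least 100. Shmt1 was the second nearest gene, at 0.31, after Peg10 at 0.29, an imprinted gene of retrotransposon origin. Cox6a2, a cytochrome c oxidase subunit typical of muscle (0.31), Neat1, the long noncoding RNA of paraspeckles (0.37), and Tmem2, a cell-surface hyaluronidase (0.42), followed. Neat1 and Tmem2 lie on chromosome 19, as Psat1 does. The other enzymes were farther from it, Shmt2 at rank 154, Phgdh at 649, Aldh1l2 at 1021 and Psph at 1340, and Mthfd2, Mthfd1l and Mthfd1 at ranks 3109, 4835 and 5695. These ranks describe the same values that chose the list.

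The glycine cleavage system breaks glycine down to a folate-bound carbon unit. Its T-protein, Amt, had 0 reads in all 8 empty samples and 34 and 31 reads in Wnt5a libraries A and B. A count of 0 allows up to 3 reads over the empty group, a value of 0.398, so the Wnt5a mean of 7.63 ± 0.51 (SD, n = 2 libraries) was at least 19.2-fold higher. It lay below the minimum mean of 10 and was not tested. Amt lies between Nicn1, with 5 reads in empty and 504 in Wnt5a cells, and Tcta, with 4 and 279, and next to these Rhoa had 20 and 4350. The T-protein transcript was thus low together with its neighbours on chromosome 9 in empty cells. Of its partners, the H-protein Gcsh (0.13, SE 0.16, limma adjusted p = 0.782) and Dld, the shared lipoamide dehydrogenase (0.04, SE 0.12, limma adjusted p = 0.920), did not pass.

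Other genes of serine and folate metabolism were taken from 8 lists of 77 genes, of which 70 had values here and 62 were tested. Between Wnt5a and empty cells, 1 of the 62 passed, against 2.06% of all genes tested, and 10 (16.1%) had an unadjusted p under 0.05, the same share as of all genes tested (16.1%). It was Slc38a5, a transporter of serine, glycine and glutamine, which fell. Its samples spanned 231 to 298 in empty and 149 to 187 in Wnt5a cells, without overlap. The means were 267 ± 20.8 and 169 ± 2.08 (SD, n = 2 libraries) and the log2 difference −0.65 (SE 0.10, limma adjusted p = 0.0284). The call was lost when either Wnt5a library was left out, without a filter and without a trend, and the adjusted p ran from 2.22e-08 to 0.0926 over the alternatives.

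The other serine and glycine carriers did not pass: of 10 tested in that list, 0 were higher and 1 was lower, with a median of 0.09. Folate uptake, reduction and use had 0 of 10 called (median −0.01). Its most abundant gene, Tyms, thymidylate synthase, had a log2 difference of 0.04 (SE 0.12, limma adjusted p = 0.925).

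The methionine cycle and transsulfuration had 0 of 11 called (median 0.06), with Mat2a, the methionine adenosyltransferase of dividing cells, at 0.12, Ahcyl1 at 0.06 and Ahcyl2 at −0.16. Enzymes that consume serine or glycine had 0 of 6 called (median −0.0043), with Ptdss1, a phosphatidylserine synthase, at −0.02, Sptlc2, a subunit of serine palmitoyltransferase, at −0.02, and Gcat at −0.04. Purine synthesis, which uses folate-borne carbons, had 0 of 6 called (median 0.04), with Paics at 0.06, Gart at −0.07 and Atic at −0.03. Lower glycolysis, from which serine synthesis branches, had 0 of 5 called (median −0.11), with Pkm at −0.12, Gapdh at −0.11 and Pgk1 at −0.13. Only 65.6%, 72.2% and 32.0% of the windows of their longest transcripts occur in no other gene. Their levels are therefore uncertain, as that of Phgdh is. The median over all genes tested was 0.00.

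Atf4 and its target genes, 12 tested, had 0 called between Wnt5a and empty cells (median 0.13). An unadjusted p under 0.05 was found for 3 of them, against 16.1% of all genes tested. Atf4 itself was 2251 ± 194 and 2465 ± 232 (log2 difference 0.13, SE 0.10, limma adjusted p = 0.619). Asns, asparagine synthetase, was at 0.22 (SE 0.09, limma adjusted p = 0.284) and Atf5 at −0.14 (SE 0.12, limma adjusted p = 0.658). With the libraries paired, 8 genes of the 8 lists passed, beside 17.0% of all genes. Asns, Chac1, Nupr1, Pfas, Pgam1 and Srr were the 6 that were higher, and 2 were lower, Slc38a5 among them. Named after their values were seen, Srr, serine racemase (0.47), and Pfas of purine synthesis (0.30) lie on chromosome 11. Their neighbours had medians of 0.18 and 0.15. Pgam1 (0.31) lies on chromosome 19 among neighbours with a median of 0.42. Asns lies on chromosome 6, Chac1 (0.46) on chromosome 2 and Nupr1 (0.68) on chromosome 7. The neighbours of these had medians of 0.07, 0.0006 and 0.02. The part of the neighbourhood in these differences was not tested.

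Between libraries B and A, 3 of the 62 passed, all higher in B, against 7.41% of all genes. Tyms was higher by 0.24 (limma adjusted p = 0.0321), Atf4 by 0.18 (limma adjusted p = 0.0477) and the Atf4 target Trib3, a pseudokinase, by 0.51 (limma adjusted p = 0.0243). The Atf4 list had a median B minus A difference of 0.19, and 8 of its 12 genes had an unadjusted p under 0.05, 7 higher and 1, Cebpb, lower (−0.37), against 28.7% of all genes tested. The remaining lists had medians from −0.08 for lower glycolysis to 0.25 for the 2 tested glycine cleavage partners. Phgdh, Psat1 and Psph were also called higher in B, as were 3.33% of all genes tested. A link between these enzymes and Atf4 or Trib3 was not tested.

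**Figure D4:**
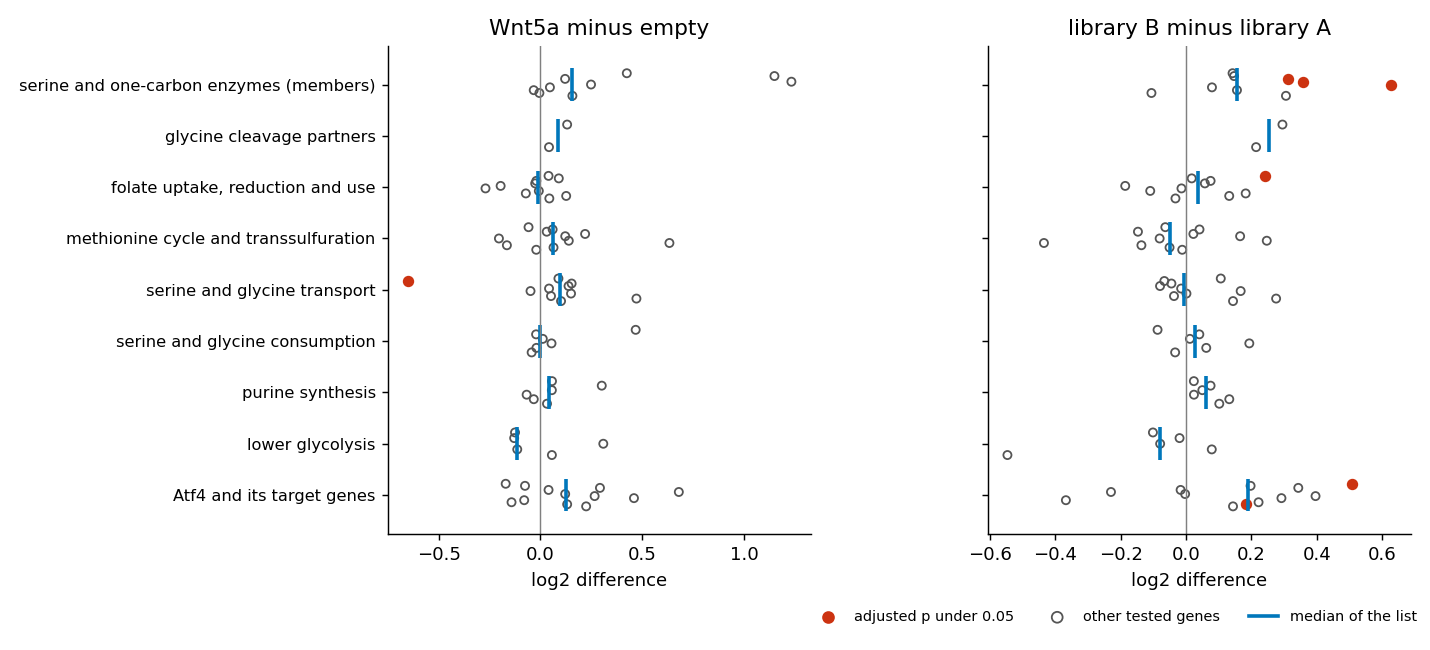
Log2 differences of the 9 enzymes and of the tested genes of the 8 pathway lists, Wnt5a minus empty on the left and library B minus library A on the right, with filled points for adjusted p under 0.05 (not marked for the 9 enzymes on the left, which were not tested there) and a blue line at each list's median. On the left only Slc38a5 is filled, and on the right 3 enzymes, Tyms, Atf4 and Trib3.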

How the data were processed

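RNA was sequenced by oligo-dT selection from 500 ng of total RNA and a NEBNext Ultra kit, per the labels' protocols. The deposited values are a signal per gene, normalised by the authors. The submitters' processing notes name TopHat, Bowtie, HTSeq and DESeq2, and the genome build, annotation and strand use are not given in the sources used here. In each sample 100% of the values were whole multiples of 1 step, within 0.01 of a whole read, and the reads were recovered from it. Each enzyme rested on 360 to 5233 reads per library.

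Genes with a mean value of at least 10 (12357) were fitted on library means with limma 3.58.1 (R 4.3.3) on log2(value + 1), using a trended eBayes prior. P-values were adjusted by Benjamini-Hochberg over all of them, with a threshold of 0.05. The script was tested on simulated data. Library B was compared with A with group as a term. Alternatives were other pseudocounts and filters, other scalings, edgeR 4.0.16 and DESeq2 1.42.0 on the recovered reads, the replicate block and the omission of each library. Chromosomes and gene order came from RefSeq GRCm38.p6 (17619 of 17655 symbols matched) and lengths from the longest GENCODE M21 transcript.

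The labels give both groups the same sample numbers. Over 12357 genes, B minus A correlated between the groups (r = 0.44). The deviations of the 8 same-numbered pairs from their group means correlated at r 0.175 to 0.220. These 8 values carry the same A and B difference, as samples within a library differed by little more than sampling noise. Pairs with unlike numbers were not compared, so pairing of single samples was not tested. The main fit between the groups was unpaired, and only the replicate block paired the libraries, A to A and B to B.

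The members, lists and named genes were chosen with earlier results of these data known. Named were all members, the called genes of each list or otherwise its 3 most abundant tested ones, the 5 genes nearest to Psat1, and list genes in a run of neighbours at or near 0 in one group. Some list genes are counted but not reported here by name.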

Additional observations from a re-analysis of the deposited data

How the results depend on the processing

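Between Wnt5a and empty cells, 254 genes were called, and 146 without a filter on low values, 102 with a mean of at least 50, 158 without a trend, 4377 with the 16 samples counted separately, 2095 with the replicate block and 538 with DESeq2. Leaving out 1 library at a time gave 138 to 1098. Of the 9 enzymes, 2 were past the threshold, with 0 without a filter or without a trend, 4 with the replicate block, 1 with the chromosome medians removed, and 2 to 5 with 1 library left out, 5 of them without empty library B. Of the pathway genes 1 was called, with 0 without a trend, 21 over the 16 samples, 8 with the replicate block, 2 with DESeq2 and 0 to 6 with 1 library left out. Without a filter the 1 gene called was Amt. Between libraries, 916 genes and 3 enzymes were called, with 0 and 0 without a filter or without a trend, and 389 genes with DESeq2. DESeq2 gave no adjusted p for Psph. The causes of these changes were not tested.

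Over the alternatives with 4 libraries, the log2 Wnt5a minus empty difference was 0.87 to 1.23 for Psat1, 0.98 to 1.16 for Shmt1 and 0.40 to 0.44 for Shmt2. With 1 library left out it was 1.02 to 1.44, 0.94 to 1.35 and 0.34 to 0.51, but −0.07 to 0.57 for Phgdh and −0.07 to 0.38 for Aldh1l2. The lone library of a group is then assumed to vary like the other group. Some small differences changed sign with a library left out: Dld (−0.12 to 0.20), Gcsh (−0.0370 to 0.30), Tyms (−0.0807 to 0.16), Mat2a (−0.0347 to 0.28), Ptdss1 (−0.0732 to 0.0333), Sptlc2 (−0.0696 to 0.0265), Atic (−0.10 to 0.0354, and 0.14 with the chromosome medians removed) and Atf5 (−0.31 to 0.0256). Leaving a library out of the comparison of B with A leaves no residual degrees of freedom and was not run. Apart from the counts given in the report and here, pairing changed no other call of an enzyme or pathway gene. With 2 libraries per group, an enzyme whose libraries differ as much as those of Phgdh gives a wide error.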
